A study of Mus musculus with 6 samples.

Results

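mmu-miR-103 and mmu-miR-107, below miR-103 and miR-107, are sister microRNAs (miRNAs), short RNAs that guide repression of messenger RNAs with matching sites. They were examined across 6 small RNA libraries of N2A (Neuro2A), a cell line established from a neuroblastoma of a mouse. All entries named as mouse miR-103 or miR-107 were taken, whatever their arm or length variant, which gave 5 of 1046 distinct entries (1080 as listed), 3 of miR-103 and 2 of miR-107. In 3 libraries the cells had received an siRNA against the circular RNA circCpsf6 (si-circCpsf6), and in the other 3 a control siRNA (si-NC). Both siRNAs were delivered with a lipid reagent at 100 nM, in the same medium and serum, and the comparison addresses the effect of silencing circCpsf6 on miRNA levels. The amount of the circular RNA was not analysed here, and how far it was silenced is not known for any library.

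The precursors of miR-103 and miR-107 lie in introns of the pantothenate kinase genes, whose enzymes start the synthesis of coenzyme A. As background, these miRNAs are known for repressing Dicer1, the enzyme that cuts miRNA precursors into mature miRNAs, and for roles in insulin sensitivity in liver and fat, where they repress Caveolin-1. In brain, miR-107 is known as a repressor of Bace1, the secretase that begins amyloid processing. A miRNA hairpin yields a strand from its 5′ side (5p) and one from its 3′ side (3p), and for miR-103 and miR-107 the 3p strand is known as the one that acts. Messenger RNAs, including Dicer1 and the host genes, are not measured by small RNA libraries.

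The sequences decide how well the entries can be told apart, so the mature strands are shown here from RefSeq (GRCm38.p6), with the seed (bases 2 to 8, which pair with targets) in capitals. All 5 entries matched a RefSeq mature name once the variant suffix was removed.
miR-103-3p: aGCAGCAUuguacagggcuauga
miR-107-3p: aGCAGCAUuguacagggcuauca
miR-107-3p_R-2: aGCAGCAUuguacagggcuau
miR-103-1-5p: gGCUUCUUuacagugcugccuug
miR-103-2-5p: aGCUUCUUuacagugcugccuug
miR-107-5p: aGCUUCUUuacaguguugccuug
The 3p strands share one seed and the 5p strands share another. Counted from 1 at the 5′ end, miR-107-3p differs from miR-103-3p by the single substitution G22C. The miR-107 entry with most reads is named miR-107-3p_R-2, a suffix read here as 2 bases missing at the 3′ end. That leaves 21 bases, all of which are identical to the first 21 of miR-103-3p. The base that separates the sister miRNAs is therefore absent from this entry as named, and how the authors assigned such reads is not given in the sources used here. Values of miR-107-3p_R-2 are accordingly those of the entry, and its split from shortened miR-103-3p is uncertain. On the 5p side the copies of miR-103 are distinguishable, with A1G between miR-103-2-5p and miR-103-1-5p, and miR-107-5p differs from miR-103-2-5p by C16U.

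The hairpins, shown to place the strands, carry the mature 5p and 3p strands in capitals.
Mir103-1: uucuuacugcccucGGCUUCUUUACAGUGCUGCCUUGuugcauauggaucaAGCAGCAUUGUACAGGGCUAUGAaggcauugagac
Mir103-2: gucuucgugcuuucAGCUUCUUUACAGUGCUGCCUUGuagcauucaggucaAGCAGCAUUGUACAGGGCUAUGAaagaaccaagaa
Mir107: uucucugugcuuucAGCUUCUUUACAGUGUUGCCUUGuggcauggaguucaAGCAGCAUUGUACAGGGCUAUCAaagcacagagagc
On GRCm38, Mir103-1 lies at chr11:35782396-35782481 (+) in an intron of Pank3, Mir103-2 at chr2:131288052-131288137 (+) in an intron of Pank2, and Mir107 at chr19:34820687-34820773 (-) in an intron of Pank1. Each hairpin is on the strand of its host gene and overlaps no annotated exon of it (GENCODE M21). The 3p strand is the same in Mir103-1 and Mir103-2, so the miR-103-3p value sums over both loci, whereas each 5p entry belongs to one of them.

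The values are the authors' normalized read numbers, rounded to whole numbers before deposit. Over the distinct entries they summed to between 2826263 and 3219618 in the si-circCpsf6 libraries and to between 2516481 and 2990340 in the si-NC libraries, and since they are normalized the read depth is unknown. si-NC replicate 3 stood apart, with 558 entries at 1 or more, against 717 to 849 in the si-circCpsf6 libraries and 840 and 815 in the other si-NC libraries. Values without it are given beside the log2 changes. In these cells, 7 of 7 neuronal marker miRNAs were listed. Their values, mostly miR-7a-5p, summed to between 237561 and 391059 in si-circCpsf6 and between 137024 and 262216 in si-NC. miR-7a-5p alone was at 198948 to 364458 in si-circCpsf6 and 88548 to 238295 in si-NC. miR-9-5p, widely used as a neural marker, was low, at 83 to 153 in si-circCpsf6 and 154 to 180 in si-NC. Of the 4 blood markers, miR-451a and miR-144-3p did not exceed 17 in any library and no entry was found for the other two. Fibroblast and smooth muscle markers, mostly miR-143-3p, summed to between 78099 and 102200 in si-circCpsf6 and between 64481 and 102176 in si-NC. The endothelial miR-126a-3p was at 2869 to 4301 in si-circCpsf6 and 2931 to 4117 in si-NC. Entries chosen by name as overlapping structural RNA, used as a sign of RNA breakdown, summed to 6914 to 10349 in si-circCpsf6 and 8961 to 14274 in si-NC. The labels do not state whether the replicates were separate cultures. The p-values reflect the spread among these libraries alone, and that spread may be technical.

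mmu-miR-103-3p was among the abundant miRNAs of N2A cells, and its difference between the groups was within the spread between libraries. It was listed at 32339, 31215 and 21547 in the si-circCpsf6 libraries, against 31827, 28377 and 14065 in the si-NC libraries. The groups overlapped, and replicate 3 was the lowest library of each. Its mean rank was 31 among the distinct entries, and it held 0.959 ± 0.191% of the summed values in si-circCpsf6 and 0.870 ± 0.272% in si-NC (mean ± SD, n = 3 each). The means were 28367 ± 5933 in si-circCpsf6 and 24756 ± 9418 in si-NC. By limma on log2(value + 1), fitted across all 916 entries with a mean of 1 or more, the log2 change was 0.26 (SE 0.36, 95% interval -0.58 to 1.10, adjusted p = 0.948). Without si-NC replicate 3 the sign turned, with a log2 change of -0.11 (adjusted p = 0.826).

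The entry mmu-miR-107-3p_R-2 had higher values in every si-circCpsf6 library than in any si-NC library, but it did not pass the test across all entries. It was listed at 4168, 3646 and 4355 in si-circCpsf6, against 3046, 3131 and 2742 in si-NC. The groups did not overlap, and si-NC replicate 3, low for miR-103-3p, lay close to the other si-NC libraries here. The means were 4056 ± 368 in si-circCpsf6 and 2973 ± 205 in si-NC (SD, n = 3 each), a ratio of 1.36. The log2 change was 0.45 (SE 0.23, 95% interval -0.085 to 0.98), and the limma adjusted p was 0.735. The adjusted p ranged from 0.181 to 0.918 over the alternative settings. The log2 change ran from 0.39 to 0.52 when any single library was left out, and was 0.39 without si-NC replicate 3 (limma adjusted p = 0.321). In the authors' deposited table this entry had a fold change of 1.36 and an unadjusted p of 0.0192.

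Of the 5 entries, 0 had an adjusted p under 0.05 by limma, against 0% of the 916 entries tested, and 0 had an unadjusted p under 0.05, against 6.22%. Groups that did not overlap were seen for 1 of the 5, miR-107-3p_R-2, against 11.7% of all entries tested (6.77% higher and 4.91% lower in si-circCpsf6). All 5 entries passed the filter on low values, miR-107-5p only through its values in si-circCpsf6. Among 23 marker entries, 8 also had groups that did not overlap, 2 higher and 6 lower in si-circCpsf6. The 4 epithelial markers summed to 7 to 56 in si-circCpsf6 and 124 to 408 in si-NC, and miR-200a-3p and miR-200c-3p each separated the groups. Of the entries chosen by name as overlapping structural RNA, mir-6236-p5 was at 30 to 64 in si-circCpsf6 and 130 to 173 in si-NC. mir-6240-p3 was at 362 to 524 in si-circCpsf6 and 683 to 3533 in si-NC, and miR-5121 at 205 to 423 in si-circCpsf6 and 848 to 2420 in si-NC. The groups overlapped for miR-1983, miR-1839-5p and miR-3968 of the same list. Of these, miR-3968 reached higher in si-circCpsf6, at 1593 to 5855, against 1914 to 2630 in si-NC. miR-214-3p, a fibroblast marker, was at 1131 to 1482 in si-circCpsf6 and 201 to 797 in si-NC. The neuronal miR-132-3p was at 2897 to 3927 in si-circCpsf6 and 2312 to 2507 in si-NC, and miR-9-5p, given above, was the last of the 8. The part of these 8 marker entries in the miR-107-3p_R-2 difference was not tested. Because these are bulk samples, a lower value can reflect fewer cells of a type or less RNA per cell, which cannot be told apart.

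**Figure D1:**
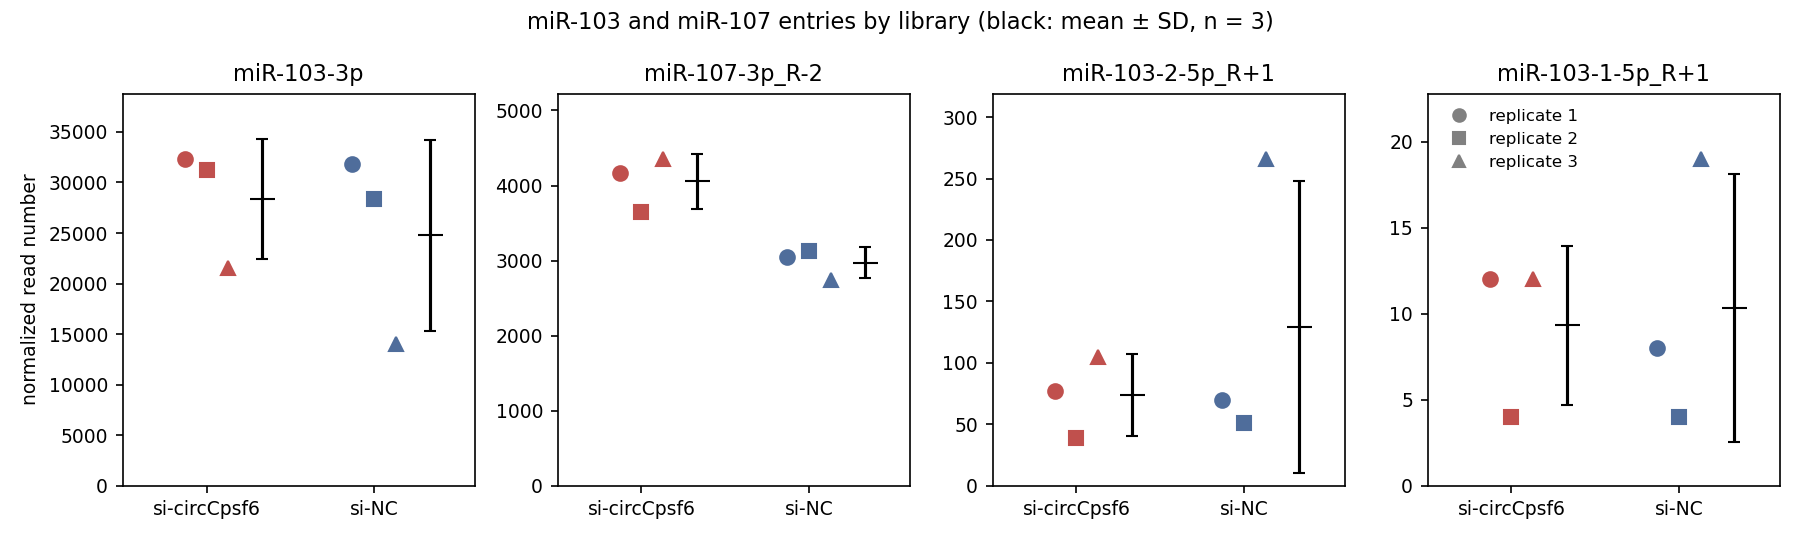
Normalized read number (vertical axes, each from 0) of 4 entries in the 3 si-circCpsf6 and 3 si-NC libraries, with marker shapes for replicate numbers and black bars for the mean ± SD. miR-107-3p_R-2 lies between 3646 and 4355 in si-circCpsf6 and between 2742 and 3131 in si-NC, while the other entries overlap and si-NC replicate 3 is the lowest point for miR-103-3p and the highest for both 5p entries.

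The 5p strands of miR-103 were scarce, and most of their values were listed under the Mir103-2 entry. miR-103-2-5p_R+1 was listed at 77, 39 and 105 in si-circCpsf6, against 70, 51 and 266 in si-NC. The groups overlapped, and si-NC replicate 3 held by far the highest value. The log2 change was -0.53 (SE 0.73, limma adjusted p = 0.948) and became 0.19 without si-NC replicate 3 (adjusted p = 0.860). miR-103-1-5p_R+1, the 5p strand of the Mir103-1 locus in Pank3, was listed at 12, 4 and 12 in si-circCpsf6, against 8, 4 and 19 in si-NC. Its groups overlapped too, with a log2 change of -0.030 (SE 0.95, limma adjusted p = 0.994), which was 0.50 without si-NC replicate 3 (adjusted p = 0.721). The suffix of both entries is read as an added base at the 3′ end, and in both hairpins the next base is U.

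Among the 5p values of miR-103, the Mir103-2 entry made up 86.5%, 90.7% and 89.7% in si-circCpsf6 and 89.7%, 92.7% and 93.3% in si-NC. The predominance of the Mir103-2 entry on the 5p side was thus seen in each of the 6 libraries. It rests on the base at position 1, where the 5p strands differ, and on Mir103-1 values of no more than 19. The 3p strand cannot be divided between the loci in this way.

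miR-107-5p, the passenger strand of Mir107, was listed at 4, 3 and 0 in si-circCpsf6 and at 0 in each si-NC library. The lowest value above 0 in a library was 1 or 2, so these values lie near the bottom of the scale and no fold change is given. Since it passed the filter only through si-circCpsf6, nothing is read from its test.

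The balance between the 3p and 5p strands of miR-103 varied widely between libraries. The ratio of miR-103-3p to the summed 5p entries was 363, 726 and 184 in si-circCpsf6, against 408, 516 and 49.4 in si-NC. Replicate 3 was lowest in both groups, and the groups overlapped. On the log2 scale the ratio averaged 8.49 ± 0.98 in si-circCpsf6 and 7.75 ± 1.86 in si-NC (SD, n = 3 each), a difference of 0.74 (two-sided exact permutation p = 0.7, where 3 libraries against 3 cannot give a p below 0.1). Without si-NC replicate 3 the difference was -0.33 (exact permutation p = 0.7). The 5p entries accounted for 1.99% of the miR-103 values in si-NC replicate 3, against 0.138% to 0.540% in the si-circCpsf6 libraries and 0.244% and 0.193% in the other si-NC libraries.

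The high minor-strand share in si-NC replicate 3 was set beside 170 miRNAs, miR-103 included, with both strands listed and a minor strand averaging 10 or more, a comparison chosen after the values were seen. The minor-strand share in si-NC replicate 3 exceeded that of both other si-NC libraries for 69 of them (40.6%). For miR-103 the share was 9.07 times the mean of the other si-NC libraries, and 3 miRNAs had a larger ratio, while the median over all 170 was 0.905. The median minor-strand share was 7.03%, 7.61% and 7.39% in the si-circCpsf6 libraries, and 7.89%, 6.32% and 4.48% in the si-NC libraries. In that library the miR-103 share was thus the highest of the 6 and the median share the lowest.

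The balance between the sister 3p entries differed more between replicate numbers than between the groups. The miR-107-3p_R-2 value was 12.9%, 11.7% and 20.2% of the miR-103-3p value in si-circCpsf6, against 9.57%, 11.03% and 19.5% in si-NC. Replicate 3 was the highest library of each group, and the groups overlapped. The log2 ratio of miR-103-3p to miR-107-3p_R-2 averaged 2.79 ± 0.42 in si-circCpsf6 and 2.97 ± 0.54 in si-NC (SD, n = 3 each), a difference of -0.19 (two-sided exact permutation p = 0.5). With si-NC replicate 3 left out, the difference in this log2 ratio was -0.50 (exact permutation p = 0.2). Summed over all 5 entries, the value was 36600, 34907 and 26019 in si-circCpsf6, against 34951, 31563 and 17092 in si-NC. The means were 32509 ± 5684 in si-circCpsf6 and 27869 ± 9485 in si-NC, a difference of 4640 (exact permutation p = 0.6). This sum does not depend on how reads were divided between the sister miRNAs, provided each read was counted once and under one of these entries, which is not known. Without si-NC replicate 3 the difference was -748 (exact permutation p = 0.9).

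**Figure D2:**
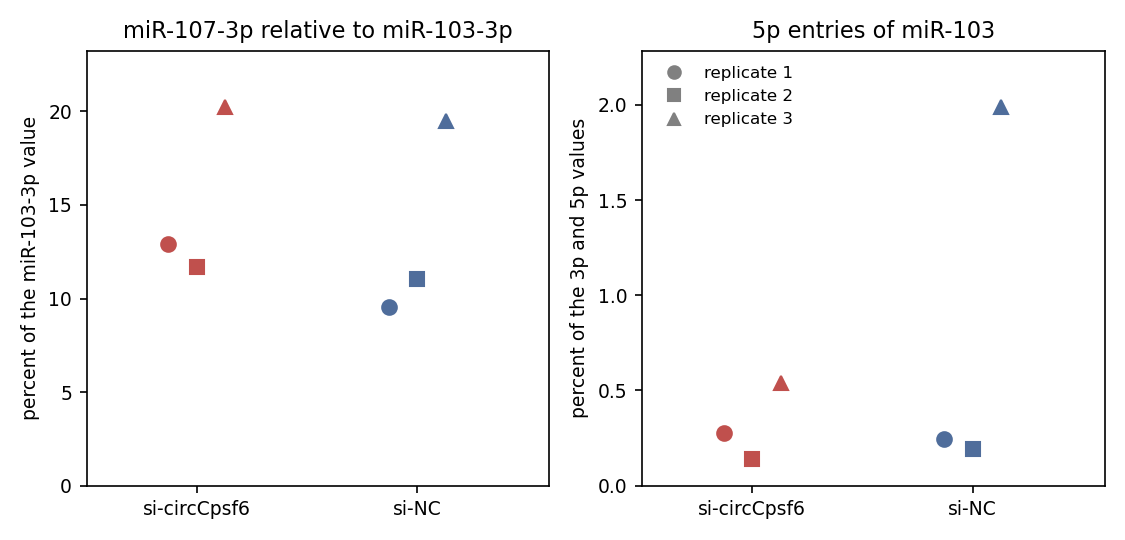
Left, the miR-107-3p_R-2 value as a percentage of the miR-103-3p value, and right, the 5p entries as a percentage of all miR-103 values, for each si-circCpsf6 and si-NC library, with marker shapes for replicate numbers. Replicate 3 is highest in both groups in both panels, at 20.2% in si-circCpsf6 and 19.5% in si-NC on the left, and at 0.540% in si-circCpsf6 and 1.99% in si-NC on the right.

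miR-103 and miR-107 belong to a wider group of miRNAs that carry AGCAGC near the 5′ end, together with the miR-15 and miR-16 family, which is known for repressing cyclins and Bcl2. The relatives are shown with that motif in capitals.
miR-15a-5p: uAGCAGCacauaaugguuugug
miR-15b-5p: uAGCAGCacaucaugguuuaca
miR-16-5p: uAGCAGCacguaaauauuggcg
miR-195a-5p: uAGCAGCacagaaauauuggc
miR-322-5p: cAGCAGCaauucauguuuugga
miR-497a-5p: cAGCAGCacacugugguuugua
miR-503-5p: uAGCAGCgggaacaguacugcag
AGCAGC starts at base 1 in miR-103-3p and miR-107-3p and at base 2 in these relatives, so their seeds are shifted by a base. Searched on the miRNA strand, it occurs within the first 8 bases of 13 of 1679 mature mouse miRNAs in RefSeq (0.774%). miR-497b, which was on the list of relatives, does not hold it, and no entry for miR-195b was used here.

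Of 8 relatives tested, 6 had a higher log2 value in si-circCpsf6 and 2 a lower one. Their median log2 change was 0.19, against 510 higher of 916 entries (55.7%) and a median of 0.086 over all. By limma 0 passed, at an adjusted or an unadjusted p under 0.05. Without si-NC replicate 3 the median was 0.64, against -0.041 over all entries. Without si-NC replicate 2 it was -0.044, below the 0.17 over all entries. The groups did not overlap for 1 of the 8 relatives, near the 11.7% over all entries tested. This was miR-322-5p, a miRNA of an X-linked cluster known for promoting exit from the cell cycle.

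miR-322-5p was listed at 7977, 9441 and 7282 in si-circCpsf6, against 4700, 5161 and 6858 in si-NC. Its log2 change was 0.57 (SE 0.26, limma adjusted p = 0.735), or 0.73 without si-NC replicate 3. Its cluster neighbour miR-503-5p was at 2552, 6621 and 2952 in si-circCpsf6, against 1532, 2767 and 1756 in si-NC. There the groups overlapped, and the log2 change was 0.91 (SE 0.41, adjusted p = 0.735), or 0.84 without si-NC replicate 3.

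The most abundant relative, miR-16-5p, did not follow miR-103-3p in si-NC replicate 3. It stood at 36038, 26335 and 45178 in si-circCpsf6, against 26998, 21252 and 67301 in si-NC, so its highest library was the lowest for miR-103-3p. miR-15a-5p was likewise at 4555, 3095 and 5362 in si-circCpsf6, against 1947, 2368 and 13188 in si-NC. Log2 changes of these were 0.050 for miR-16-5p and 0.10 for miR-15a-5p with all libraries, and 0.55 and 0.98 without si-NC replicate 3. miR-15b-5p, from the locus of a miR-16 copy, averaged 19966 ± 7565 in si-circCpsf6 and 14789 ± 7814 in si-NC (log2 change 0.49, or 0.89 without si-NC replicate 3). The log2 change of miR-195a-5p was -0.36 and that of miR-497a-5p was -0.040, and without si-NC replicate 3 both signs turned, to 0.10 and 0.24. miR-497b was listed at no more than 6 in any library.

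**Figure D3:**
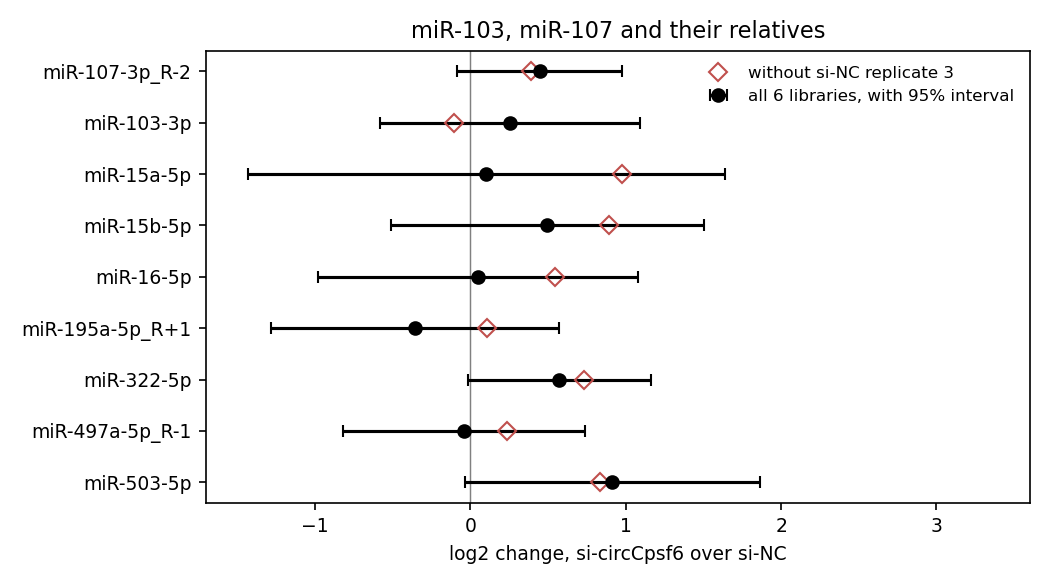
Log2 change of si-circCpsf6 over si-NC for miR-107-3p_R-2, miR-103-3p and 7 relatives with a mean of 10 or more, as black points with 95% intervals from limma on all 6 libraries and as open diamonds without si-NC replicate 3. Every interval includes 0, and the open diamond lies below 0 only for miR-103-3p (-0.11).

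miR-107 is one of several miRNAs reported to repress Bace1, and 10 others were listed. Of these, 7 had a higher and 3 a lower log2 value in si-circCpsf6. Their median log2 change was 0.25, against 0.086 over all entries. By limma 0 passed, at an adjusted or an unadjusted p under 0.05, and the median was 0.56 when si-NC replicate 3 was left out and -0.072 when si-NC replicate 2 was. miR-29a-3p, whose family is also known for repressing collagens, was at 71296, 58017 and 64901 in si-circCpsf6, against 44778, 42453 and 48633 in si-NC. Its groups did not overlap, and the log2 change was 0.51 (SE 0.25, adjusted p = 0.735), or 0.57 without si-NC replicate 3. miR-9-5p was lower in each si-circCpsf6 library (83 to 153) than in any si-NC library (154 to 180), by a narrow margin. Its log2 change was -0.45 (SE 0.43, limma adjusted p = 0.904), or -0.51 without si-NC replicate 3. miR-29a-3p and miR-9-5p were the members whose groups did not overlap, 1 higher and 1 lower of 10, against 11.7% of all entries tested. miR-298-5p averaged 18870 ± 3815 in si-circCpsf6 and 16175 ± 9309 in si-NC, and its log2 change of 0.40 turned to -0.13 without si-NC replicate 3. miR-328-3p averaged 836 ± 448 in si-circCpsf6 and 721 ± 522 in si-NC, and its log2 change of 0.61 turned to -0.42 without that library. miR-29b-3p had a log2 change of 0.10 with all libraries and 1.14 without si-NC replicate 3, and miR-29c-3p one of -0.046 that turned to 0.78. miR-124-3p, a neuronal miRNA, had one of 0.65 with all libraries and 1.17 without si-NC replicate 3. miR-15b-5p, miR-16-5p and miR-195a-5p are on both lists.

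**Figure D4:**
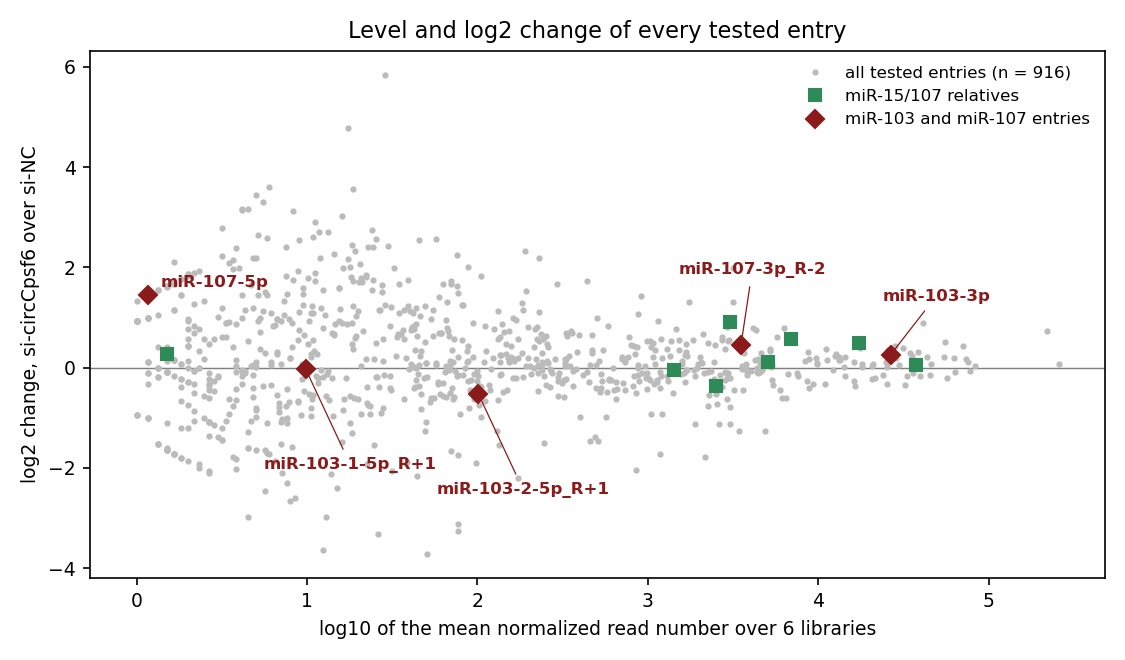
Log2 change of si-circCpsf6 over si-NC against the log10 mean normalized read number of all 916 tested entries (grey), with the 5 miR-103 and miR-107 entries as red diamonds and 8 relatives as green squares. miR-103-3p (0.26) and miR-107-3p_R-2 (0.45) lie in the range of other entries of their level, and miR-107-5p stands at the low end of the level scale.

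Across the 6 libraries, the values of the sister 3p entries had a Pearson r of 0.38 on log2(value + 1), given as a description over 6 libraries that share their normalization. Among 343 mouse-named entries with a mean of 100 or more, those most like miR-103-3p were miR-320-3p (r = 0.98), miR-877-3p (0.98), miR-298-5p (0.97), miR-339-3p (0.97) and miR-878-3p (0.97). All 5 were lowest in si-NC replicate 3, and without that library their r with miR-103-3p ran from 0.859 to 0.939. miR-320-3p, for example, was at 6292, 6350 and 3355 in si-circCpsf6, against 6885, 7161 and 1366 in si-NC. The entries most like miR-107-3p_R-2 were miR-872-3p (r = 0.94), miR-378c (0.93), miR-381-3p (0.92), miR-7a-2-3p (0.91) and miR-29a-3p (0.88). Each of these was higher in every si-circCpsf6 library than in any si-NC library, as miR-107-3p_R-2 was. Without si-NC replicate 3 their r with miR-107-3p_R-2 ran from 0.86 to 0.95. No entry was on both lists of likeness, and miR-872-3p was at 1071, 1027 and 1416 in si-circCpsf6, against 796, 824 and 783 in si-NC.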

How the data were processed

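Libraries were built with a TruSeq small RNA kit, per the labels' protocols, and samples were grouped by title. mm9 is the build named in the submitters' processing notes. The aligner is not given in the sources used here, nor are the normalization and the miRNA release. The deposited values were normalized read numbers rounded to whole numbers, treated as a score, per the file headers and the values. The tables also hold the authors' fold change of group means, the log2 of that fold, and a t-test p-value, which are quoted only as theirs. Rows with identical values in all 6 libraries were merged as copies where at least 3 of those values were above 0, or where the rows shared 1 name. Entries with a mean of 1 or more were tested with limma 3.58.1 (trended variance, R 4.3.3) on log2(value + 1), which understates changes of low entries, with Benjamini-Hochberg adjustment at 0.05 over all entries. The step was checked on simulated data with independent noise and shifts larger than the log2 changes given for these entries. That check does not show how well changes as small as these would be found. Single values per library were compared with exact permutation tests (two-sided). The miR-103 and miR-107 entries and the lists were chosen with earlier results of these data known. Named were all members, list miRNAs with a mean of 10 or more, and the 5 most alike entries for each 3p entry. miR-497b and the strand shares fell outside that rule. Alternatives were other pseudocounts (0.1 and 5), filters, scalings, a floor of 20, identical rows kept apart, array weights, a robust variance, a replicate block and each library left out. Hairpins were placed on GRCm38, which differs from the build the authors used. The remaining steps ran in Python 3.11.15, numpy 2.4.6, pandas 2.3.3 and scipy 1.17.1.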

Additional observations from a re-analysis of the deposited data

How the results depend on the processing

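Of the alternatives tried, 144 values kept direction and side of the threshold, and the others are given here. No entry passed with all libraries weighted equally (57 at an unadjusted p under 0.05), 31 passed with array weights and 4 without si-NC replicate 3 (range 0 to 4 with 1 library left out), and the cause was not tested. With array weights the log2 change was 0.017 for miR-103-3p (adjusted p = 0.978), 0.11 for miR-103-2-5p_R+1 and 0.52 for miR-103-1-5p_R+1. Leaving out single libraries gave log2 changes of -0.11 to 0.48 for miR-103-3p, -0.99 to 0.19 for miR-103-2-5p_R+1, -0.51 to 0.50 for miR-103-1-5p_R+1 (0.43 without si-circCpsf6 replicate 2) and 0.39 to 0.52 for miR-107-3p_R-2. For the other measures it gave differences of -748 to 8181 for the summed value, -0.50 to 0.052 for the log2 ratio of miR-103-3p to miR-107-3p_R-2 (0.018 without si-NC replicate 1 and 0.052 without si-circCpsf6 replicate 3) and -0.33 to 1.35 for the 3p to 5p ratio. Medians were -0.044 to 0.64 for the relatives and -0.072 to 0.56 for the Bace1 list, against -0.041 to 0.18 over all entries. With the replicate number as a block 0 entries passed (87 at an unadjusted p under 0.05), and the adjusted p was 0.442 for miR-107-3p_R-2 and 0.651 for miR-103-3p. The deviations of same-numbered libraries from their group means had correlations of 0.047, 0.48 and 0.40 for numbers 1, 2 and 3. For unlike numbers the correlations ran from -0.44 to 0.18. The labels do not say whether the numbers pair the libraries, so the block was kept as an alternative. With values under 20 set to 20, miR-107-5p and miR-103-1-5p_R+1 had no value to test. The unknown read depth limits the entries near the lowest values.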

Other observations

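Outside the entries named as mouse, a pair of low entries carried the platypus name oan-miR-103-3p. The one read as 1 base longer (R+1) was at 125, 110 and 63 in si-circCpsf6, against 114, 77 and 39 in si-NC, and the one read as 2 bases longer (R+2) at 43, 24 and 16 in si-circCpsf6, against 49, 40 and 12 in si-NC. Both were lowest in replicate 3 of each group, as miR-103-3p was, and their groups overlapped.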
